A study of Drosophila melanogaster with 2 samples.

Results

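Transfer RNA genes were taken as all genes of the Ensembl annotation of the Drosophila melanogaster genome whose symbol starts with tRNA:, which gave 295 of the 18164 genes on chromosome arms 2L, 2R, 3L, 3R and chromosomes 4 and X. They were unevenly spread, with 100 on 2R, 79 on 3R, 49 on 3L, 41 on 2L, 26 on X and 0 on 4. Of the 295, 290 were annotated as genes and 5 as pseudogenes. Chromatin was from whole, mixed-sex embryos aged 0 to 24 hours of a stable transgenic line in which NC2alpha carries eGFP at its C-terminal end, and an anti-GFP antibody was used for ChIP-seq in 2 biological replicates that form 1 group. No condition, genotype or stage was compared, and the labels do not say which promoter drives the transgene or whether the native protein is also present. Whole embryos of all these ages were pooled, so no value belongs to a cell type or a stage.

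Transfer RNAs bring amino acids to the ribosome, and RNA polymerase III transcribes their genes from promoter elements inside the transcribed sequence, the A box and the B box. TFIIIC binds these boxes and places TFIIIB upstream of the gene, and a run of T residues on the coding strand ends transcription. TFIIIB holds a TATA-binding protein or, as described for Drosophila, the related factor Trf, together with Brf and Bdp1. NC2alpha is the subunit that, with NC2beta, binds TATA-binding protein on DNA, and negative cofactor 2 is known mainly for its action on RNA polymerase II promoters.

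The sequences below are those of 8 transfer RNA genes that the results turn on, each with the 30 bases after its end, read 5′ to 3′ on the gene's own strand from the Release 6 (dm6) genome of RefSeq. Capitals mark the B box core (GTTCNANNC, searched on the gene's strand) and the first run of at least 4 T after the gene. The tyrosine gene is shown for the strongest peak near any transfer RNA gene, the glutamine gene for the strongest peak far from a protein-coding start, and the aspartate gene because it shares a peak with an identical copy. The isoleucine gene had a summit almost on its start. The gene tRNA:Pro-AGG-1-5 and the serine genes had replicate values that differed. The other proline gene, tRNA:Pro-AGG-1-1, had one of the smallest ratios of replicate 1 to replicate 2 signal.
tRNA:Tyr-GTA-1-8, chr3R:8669051-8669174, minus strand: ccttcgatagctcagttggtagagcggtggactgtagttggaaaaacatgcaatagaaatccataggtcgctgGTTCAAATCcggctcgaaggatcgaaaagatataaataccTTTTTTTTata
tRNA:Gln-TTG-2-1, chrX:3427422-3427523, minus strand: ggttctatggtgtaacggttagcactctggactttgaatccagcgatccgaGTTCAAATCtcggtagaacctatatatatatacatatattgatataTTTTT
tRNA:Asp-GTC-1-5, chr2L:8541761-8541862, plus strand: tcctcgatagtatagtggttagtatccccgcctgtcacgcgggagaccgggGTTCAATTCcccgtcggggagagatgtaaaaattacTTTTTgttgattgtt
tRNA:Ile-TAT-1-1, chr3L:769503-769630, plus strand: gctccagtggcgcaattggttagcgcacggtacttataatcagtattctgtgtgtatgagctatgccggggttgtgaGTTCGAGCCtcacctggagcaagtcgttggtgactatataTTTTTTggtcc
tRNA:Pro-AGG-1-1, chr2L:14495878-14495979, plus strand: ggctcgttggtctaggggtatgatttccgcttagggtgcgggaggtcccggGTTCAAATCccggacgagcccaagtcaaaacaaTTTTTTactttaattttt
tRNA:Pro-AGG-1-5, chr3L:13211214-13211315, plus strand: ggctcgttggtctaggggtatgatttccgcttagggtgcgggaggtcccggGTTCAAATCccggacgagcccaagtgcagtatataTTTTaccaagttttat
tRNA:Ser-GCT-1-1, chr3R:22397150-22397261, minus strand: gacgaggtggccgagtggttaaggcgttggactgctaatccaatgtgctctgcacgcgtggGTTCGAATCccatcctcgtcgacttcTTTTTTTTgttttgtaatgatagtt
tRNA:Ser-GCT-2-5, chr3R:22397572-22397683, plus strand: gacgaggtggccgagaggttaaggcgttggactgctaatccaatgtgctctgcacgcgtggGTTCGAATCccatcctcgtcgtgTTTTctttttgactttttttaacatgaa
The 2 proline genes are the same over the gene and differ only in what follows it. The 2 serine genes differ by 1 substitution, T16A, counted from 1 at the first base of the gene, with the base of tRNA:Ser-GCT-1-1 first.

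Peaks were counted in 4 lists deposited by the authors. The optimal list held 2174 peaks that passed the authors' reproducibility filter, and the pooled, replicate 1 and replicate 2 lists held 30000 peaks each, called at a relaxed level that admits background. A gene was counted when a peak summit lay within 500 bp of its transcription start site (TSS), which for a transfer RNA gene is the annotated 5′ end of the mature sequence. Signal is the authors' value per peak relative to a control, on a scale that the sources used here do not state, and it serves to rank peaks within a list. Ratios of signal between the replicate lists are a description only, and a ratio of 1 does not mark equal binding. Read depth is unknown, and no test was run on these lists, so shares of other genes in the same lists are given as a description. Subsets of the transfer RNA genes, by amino acid, cluster or copy number, are to be read against the same shares of all genes.

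In the optimal list 8 of the 295 transfer RNA genes (2.71%) had a summit within 500 bp, against 8.83% of all genes. In the pooled list the count was 147 (49.8%), against 46% of all genes. Both figures for the pooled list are close, so that count is near the background of the whole annotation. The replicate lists lay on either side of it. Replicate 1 had a peak at 178 transfer RNA genes (60.3%), against 47.8% of all genes, and replicate 2 at 83 (28.1%), against 40.7% of all genes. The number of transfer RNA genes with a peak thus depended on the replicate more than the number of all genes did.

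**Figure D1:**
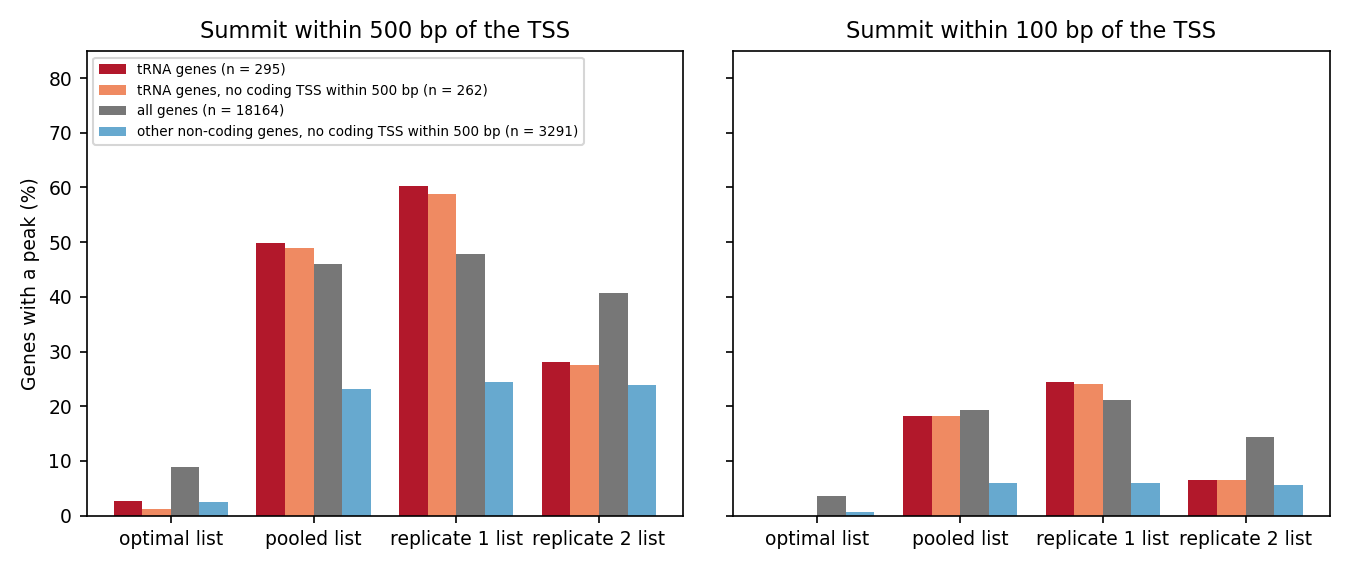
Percentage of genes with a peak summit within 500 bp (left) or 100 bp (right) of a TSS in each of the 4 lists, for all 295 transfer RNA genes, the 262 with no protein-coding TSS within 500 bp, all genes, and other non-coding genes with no protein-coding TSS within 500 bp. At 500 bp the red bars stand at 60.3% in replicate 1 and 28.1% in replicate 2, above and below the grey bars of all genes.

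A narrower window kept the order of the lists, while the pooled share fell from just above that of all genes to just below it. With summits within 100 bp, none of the transfer RNA genes had an optimal peak (all genes, 3.61%), and 54 (18.3%) had a pooled peak (all genes, 19.4%). Replicate 1 then had 72 (24.4%, against 21.1% of all genes) and replicate 2 had 19 (6.44%, against 14.4% of all genes). Within 1000 bp the shares were 70.5% in the pooled list, 76.3% in replicate 1 and 53.9% in replicate 2. Those of all genes were 58.3%, 58.9% and 55.2%, so the replicate 2 share was near that of all genes in this wider window.

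Most transfer RNA genes stand apart from protein-coding promoters: 33 had a protein-coding TSS within 500 bp of their own and 262 had none. Among the 262, 3 (1.15%) had an optimal peak, 128 (48.9%) a pooled peak, 154 (58.8%) a replicate 1 peak and 72 (27.5%) a replicate 2 peak. The 3291 other non-coding genes with no protein-coding TSS that near had peaks at 2.49% in the optimal list, 23.2% in the pooled list, 24.5% in replicate 1 and 23.9% in replicate 2. Set beside this class, the transfer RNA genes had a larger share in the pooled and replicate 1 lists, a similar share in replicate 2 and a smaller one in the optimal list. In the other non-coding genes both replicates gave nearly equal shares.

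Among the 33 with a protein-coding TSS nearby, 5 (15.2%) had an optimal peak and 19 (57.6%) a pooled peak. The 633 other non-coding genes in that position had peaks at 8.53% and 47.6%. Replicate 1 had a peak at 24 of the 33 and replicate 2 at 11, or 72.7% and 33.3%. In the 633 other non-coding genes the shares were 50.6% and 39.3%, so replicate 1 had the larger share in both classes. For the 19 transfer RNA genes with a pooled peak, the summit lay nearer the protein-coding TSS at 8 and nearer the transfer RNA TSS at 10. The median distances were 263 bp to the former and 216 bp to the latter. These are counts of genes, and neighbouring genes can share a summit. Over all 147 genes, the strongest pooled summit lay over 500 bp from any protein-coding TSS for 130, with a median distance of 2138 bp over the 147.

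Summits lay on both sides of the transfer RNA genes, and their fullest 100-bp bins differed between the lists. For the strongest pooled summit of each gene, 81 lay upstream of the gene, 28 inside it and 38 downstream, with a median of -52 bp from the TSS, where negative is upstream of the TSS on the strand of the gene in question. The median was -30 bp in replicate 1 and -84 bp in replicate 2. Counting every pair of a summit and a transfer RNA gene, the fullest pooled bin was the 100 bp downstream of the TSS, with 37 pairs, against 17 in the 100 bp upstream and 6 in the next bin downstream. The 100 bp on each side of the TSS held 35 upstream and 35 downstream pairs in replicate 1, the highest counts of its 100-bp bins together with the 35 pairs between -300 and -200 bp. The same 2 bins held 7 and 12 pairs in replicate 2, whose fullest bins lay between -300 and -200 bp with 18 pairs and in the 100 bp starting 200 bp downstream with 17.

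**Figure D2:**
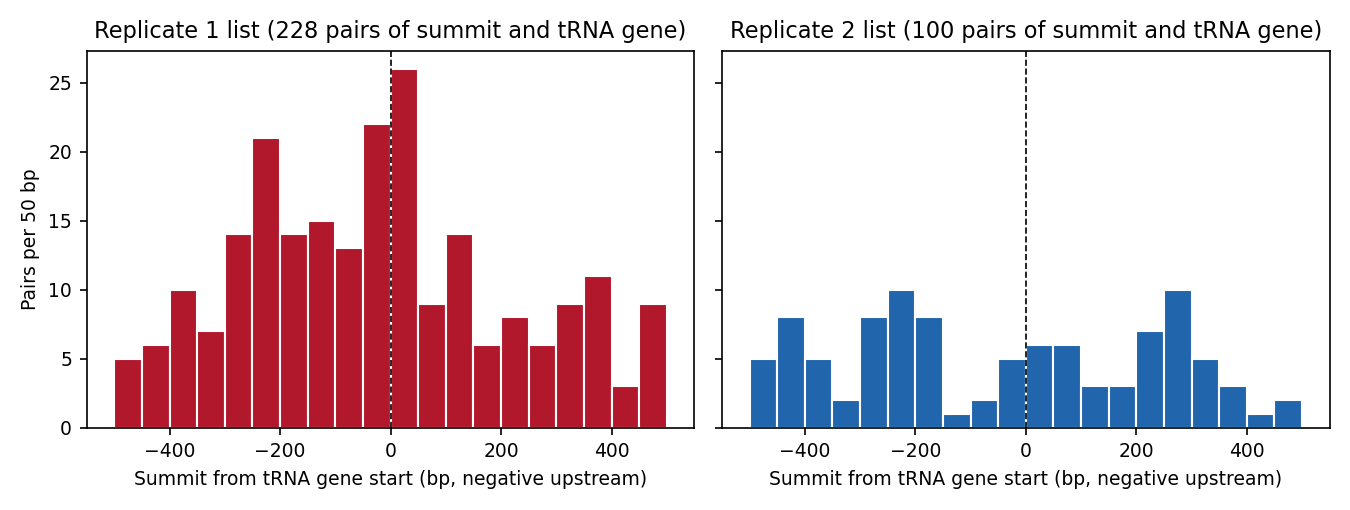
Number of pairs of a summit and a transfer RNA gene per 50 bp of distance from the gene's start, for replicate 1 (left) and replicate 2 (right), on the same vertical scale with negative values upstream. The replicate 1 pairs rise at the gene start and from -300 to -200 bp, while the replicate 2 pairs are few next to the start. A summit near several genes is counted once for each.

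At the 8 transfer RNA genes with an optimal peak the summit was mostly nearer a protein-coding start. For 6 of the 8 the strongest summit also lay within 500 bp of a protein-coding TSS, and for 5 it was closer to that TSS than to the one of the transfer RNA gene. The strongest was at tRNA:Tyr-GTA-1-8, a tyrosine gene inside CG8036 whose sequence was found once among the transfer RNA genes. Its peak (chr3R:8669278-8669501) had a signal of 382, with 233 in replicate 1 and 141 in replicate 2, and the summit lay at -255 bp from the gene's TSS and at -189 bp from a CG8036 TSS. The same gene had a second optimal summit at -470 bp, with a signal of 137, where the nearest replicate summits, at -460 and -468 bp, had values of 109 and 46.7.

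The peak at tRNA:Phe-GAA-1-2 had a signal of 180.3, with 107 in replicate 1 and 70.2 in replicate 2. Its summit lay 288 bp downstream of the transfer RNA TSS but 17 bp upstream of that of RpL17, which encodes a protein of the large ribosomal subunit. The identical aspartate genes tRNA:Asp-GTC-1-4 and tRNA:Asp-GTC-1-5 point away from each other and shared 1 peak of signal 143, with 79.7 and 63.4 in the replicates. That summit lay 90 bp upstream of a TSS of Sema1a, which encodes a semaphorin that guides axons. At tRNA:Thr-AGT-1-4, a threonine gene in CG31279, the signal was 119, with 69.7 and 48.6 in the replicates, and the summit lay nearer the transfer RNA gene, at -118 bp, than the CG31279 TSS, at -375 bp. The strongest peak of each of these genes had its higher value in replicate 1. That list also had the higher median signal over all its peaks, 21.1 against 16.5 in replicate 2.

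The other two genes, for glutamine (tRNA:Gln-TTG-2-1) and glutamate (tRNA:Glu-TTC-1-5), had an optimal summit over 500 bp from any protein-coding TSS. The glutamine gene, of unique sequence and inside CG12535, had a signal of 162, with 95.4 in replicate 1 and 66.4 in replicate 2. Its summit lay at -236 bp from the gene's TSS and 8048 bp from the nearest protein-coding TSS, that of CG14269. The glutamate gene had a signal of 152, with 99.3 and 55.4 in the replicates, a summit 246 bp downstream of its TSS and 13209 bp from the nearest protein-coding TSS. Neither summit lay on the transfer RNA gene itself. The remaining optimal peak, at the tryptophan gene tRNA:Trp-CCA-2-2, had a signal of 118, with 79.8 and 42.2 in the replicates, and its summit lay 10 bp upstream of a CG30122 TSS.

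Peaks on the transfer RNA genes themselves appeared below the reproducibility filter. The weakest optimal peak of any gene had a signal of 82.0, and the strongest pooled peak outside the optimal list near a transfer RNA gene had 78.3. It lay 4 bp inside tRNA:Pro-AGG-1-5 and at -333 bp from its identical copy tRNA:Pro-AGG-1-6 (chr3L:13211016-13211419), and the nearest protein-coding TSS was that of caps, at -17474 bp. Its replicate values were 60.9 and 15.1, a ratio of 4.03, with summits at 5 and 2 bp from tRNA:Pro-AGG-1-5. The serine genes tRNA:Ser-GCT-1-1 and tRNA:Ser-GCT-2-5 shared a peak of 72.1, with 64.1 in replicate 1 and 12.5 in replicate 2, the largest ratio among overlapping peaks at 5.11. The replicate 2 summit was elsewhere, however, at -286 bp from tRNA:Ser-GCT-2-5 against -77 bp in replicate 1. It was the nearer to tRNA:Ser-GCT-1-1, at -25 bp against -234 bp in replicate 1. The proline value in replicate 2 was below that list's median of 16.5, and the serine value was near the list's lowest of 12.2.

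Among the other strong pooled peaks the ratio varied. The peak shared by tRNA:Ser-CGA-1-4 and tRNA:Val-AAC-2-1, inside hts, which encodes the cytoskeletal protein adducin, had a signal of 77.3, with 39.1 in replicate 1 and 32.0 in replicate 2. At the histidine gene tRNA:His-GTG-1-3 the signal was 72.7, with 52.1 and 22.5, and the summit lay 71 bp upstream of a CG8490 TSS. At the glycine gene tRNA:Gly-GCC-1-12 the signal was 70.0, with 58.2 in replicate 1 and no overlapping peak in replicate 2. This gene belongs to a set of 13 identical copies, the largest size found, which a lysine set also has. The asparagine genes tRNA:Asn-GTT-1-1 and tRNA:Asn-GTT-1-2, both inside EcR, which encodes the ecdysone receptor, had strongest pooled peaks of 72.2 and 70.8. The first had replicate values of 34.5 and 25.6 and the second 54.3 and 15.2.

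The summits nearest to a transfer RNA TSS were at tRNA:Asn-GTT-1-6, at 1 bp, and at tRNA:His-GTG-1-2, at -4 bp. The asparagine gene had replicate values of 39.0 and 19.5, and the histidine gene had 23.1 in replicate 1 and no peak in replicate 2. At tRNA:Val-AAC-2-2 the summit lay at 7 bp, with 24.6 and 15.0 in the replicates, and at tRNA:Ile-TAT-1-1 at 9 bp, with 38.8 and 17.0. At 3 of these genes the overlapping replicate 2 peak had its summit farther off, at 367 bp from tRNA:Asn-GTT-1-6, 131 bp from tRNA:Val-AAC-2-2 and 250 bp from tRNA:Ile-TAT-1-1, so replicate 2 had no summit at those starts. The smallest ratios of replicate 1 to replicate 2 among the strongest pooled peaks of the genes were at tRNA:Pro-AGG-1-1 (16.5 and 19.9, ratio 0.832), tRNA:Val-CAC-2-5 (18.8 and 22.3, ratio 0.843) and tRNA:Glu-TTC-1-3 (15.2 and 17.4, ratio 0.872). At tRNA:Pro-AGG-1-1 the values belong to different summits, at -233 bp in replicate 1 and 40 bp in replicate 2, unlike those of its identical copy tRNA:Pro-AGG-1-5.

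Counted once each, 120 pooled peaks lay near transfer RNA genes, of which 52 were near at least 2 transfer RNA genes and none near more than 4. Their median signal was 38.0, close to the 38.9 of the 9121 pooled peaks at any TSS, and it ranged from 24.1 to 382. Of the 120, 16 were also at a protein-coding TSS and 104 were not. A peak of both replicate lists overlapped 57 of them (47.5%), a replicate 1 peak alone 52 (43.3%), a replicate 2 peak alone 9 (7.5%) and neither 2. For pooled peaks at any TSS the shares were 61.7% for both, 25.4% for replicate 1 alone and 10.4% for replicate 2 alone. The 728 pooled peaks at other non-coding genes alone gave 53.7%, 23.8% and 18%.

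The gap in these overlap counts was wider close to the gene. Of the 54 pooled peaks within 100 bp of a transfer RNA TSS, 21 (38.9%) overlapped a peak in both lists and 31 (57.4%) in replicate 1 alone. None (0) overlapped a peak in replicate 2 alone. Within 100 bp of any TSS the shares were 66.7% for both, 25% for replicate 1 alone and 6.3% for replicate 2 alone. Where both replicates had a peak, the ratio of replicate 1 to replicate 2 signal had a median of 1.53 at transfer RNA genes, from 0.775 to 5.11, and was above 1 at 49 of 57. The lowest was at the second peak of tRNA:Tyr-GTA-1-8, where the strongest overlapping replicate 2 peak, of 141, had its summit at -269 bp. With the nearest replicate 2 summit, at -468 bp, the ratio there was 2.33. At any TSS the median ratio was 1.35, so higher values in replicate 1 were not limited to transfer RNA genes.

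An overlapping replicate peak can have its summit elsewhere, so the count was repeated with replicate summits within 100 bp of the pooled summit, a setting chosen after the values were seen. Of the 120 peaks, 34 (28.3%) then had one in both lists, 55 (45.8%) in replicate 1 alone, 18 (15%) in replicate 2 alone and 13 in neither. At any TSS the shares were 39.7%, 33.8% and 17.3%. Within 100 bp of a transfer RNA TSS the counts were 10, 31, 5 and 8 of 54, so the absence of peaks in replicate 2 alone depended on counting any overlap. Over the 34 peaks in both lists the median ratio was 1.49, against 1.31 at any TSS. It ranged from 0.843 to 4.03 and was above 1 at 31 of the 34. For the 10 within 100 bp of a transfer RNA TSS the median was 1.34, against 1.41 within 100 bp of any TSS. With any overlap counted, those 2 medians were 1.74 and 1.41, so this difference changed direction with the matching.

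**Figure D3:**
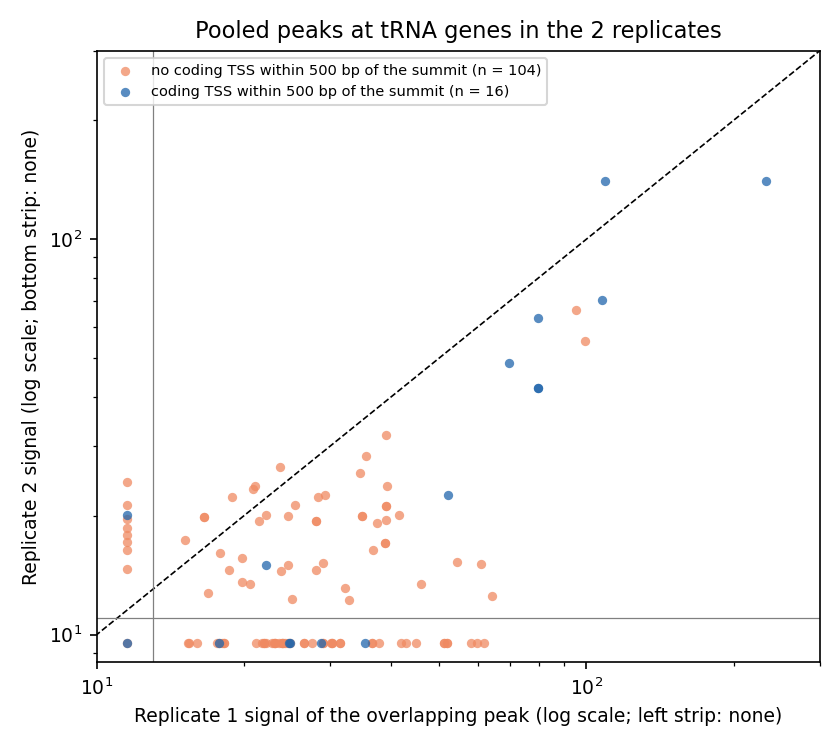
Replicate 1 against replicate 2 signal of the strongest overlapping peak for the 120 pooled peaks near transfer RNA genes, both on log scales, with peaks missing from a list drawn in the strip at the left or the bottom and the dashed line marking equal values. The 52 peaks along the bottom strip were listed in replicate 1 alone, and the strongest points, at the upper right, are mostly those also at a protein-coding TSS.

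The strongest peaks of each replicate were also counted, in equal numbers from both lists. Among the strongest 2174 peaks replicate 1 had 28 transfer RNA genes (9.49%, against 8.85% of all genes) and replicate 2 had 9 (3.05%, against 9.01% of all genes). Among the strongest 10000 the counts were 89 (30.2%, against 27.9%) and 40 (13.6%, against 23.3%). At both depths replicate 1 was near the share of all genes and replicate 2 below it. By gene over the full lists, 66 transfer RNA genes had a peak in both replicates, 112 in replicate 1 alone, 17 in replicate 2 alone and 100 in neither. In that order these are 22.4%, 38.0%, 5.76% and 33.9% of the transfer RNA genes. The same shares of all genes were 31.6%, 16.2%, 9.08% and 43.1%. The labels give the same line, age and antibody for both replicates, and what lay behind the gap was not tested.

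By the amino acid carried, the genes fall into 22 classes, with the initiator methionine (iMet) and the selenocysteine gene counted apart. In 21 of the 22 more genes had a peak in replicate 1 than in replicate 2. The exception was tyrosine, with 5 of 10 genes in replicate 1 and 6 in replicate 2. All 10 asparagine genes, which are identical in sequence, had a pooled peak, with 9 in replicate 1 and 6 in replicate 2, and 6 of them lie inside EcR. Among classes of more than 1 gene the 14 aspartate genes followed, with 11 in the pooled list, 9 in replicate 1 and 5 in replicate 2. Valine genes had the lowest share, with a pooled peak at 4 of 15.

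Some classes had few replicate 2 peaks or none. In that list 28.1% of all transfer RNA genes and 40.7% of all genes had one. Isoleucine genes had a replicate 1 peak at 10 of 12 and a replicate 2 peak at 1. Lysine genes had 12 of 19 and 2, tryptophan genes 5 of 8 and 1, and cysteine genes 4 of 7 and 1. Alanine genes had 13 of 17 and 4, the latter (23.5%) nearer the share of all transfer RNA genes. Of the 6 initiator genes, which supply the first amino acid of a new protein, 4 had a peak in replicate 1 and none in replicate 2. Those 4 genes shared 2 peaks, with pooled signals of 67.9 and 46.5. The single selenocysteine gene, tRNA:SeC-TCA-1-1, which decodes a stop codon as selenocysteine, had a pooled signal of 33.2 and a replicate 1 value of 21.8, with no replicate 2 peak.

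**Figure D4:**
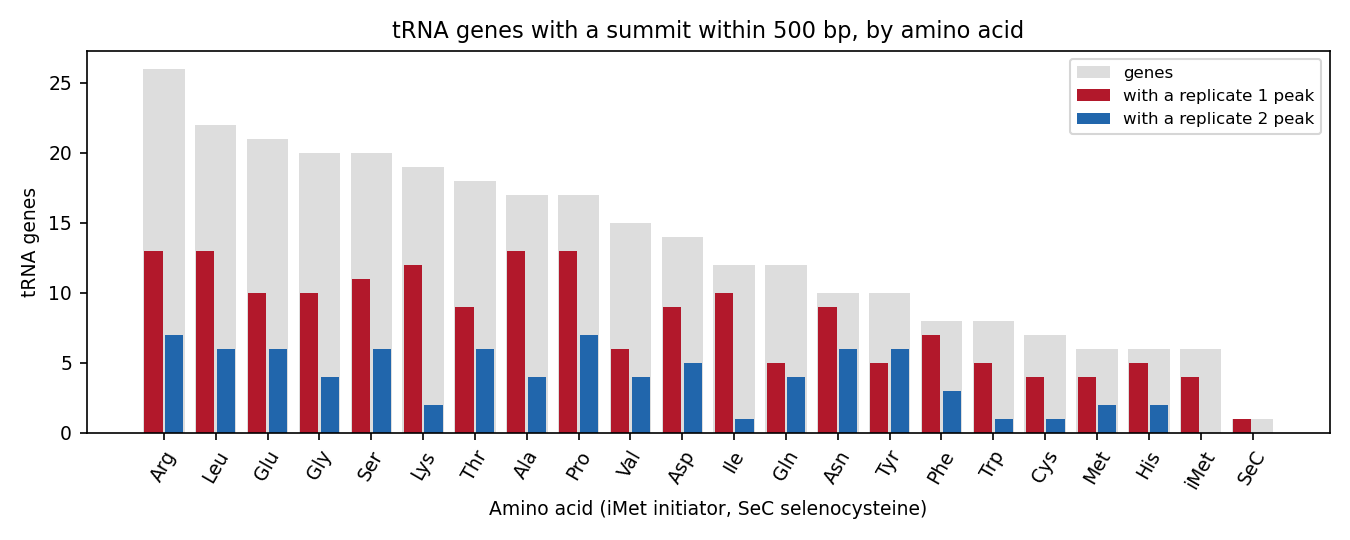
Number of transfer RNA genes by amino acid (grey), with those that had a summit within 500 bp in replicate 1 (red) and replicate 2 (blue). The red bar is the taller in every class but tyrosine, where it stands at 5 genes against 6.

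Many transfer RNA genes lie in runs. Joining genes at most 5000 bp apart gave 146 clusters, of which 77 held a single gene and 69 at least 2. At least 1 gene had a pooled peak in 75 clusters (51.4%), a replicate 1 peak in 87 and a replicate 2 peak in 54. A pooled peak was present at 32.5% of the single genes, 52.9% of the genes in clusters of 2 to 4 and 61.5% of those in clusters of 5 or more, and in replicate 1 these shares were 39.0%, 63.6% and 75.6%. In replicate 2 they were 24.7%, 30.7% and 26.9%, without that order. Of all genes, 46% had a pooled peak, 47.8% a replicate 1 peak and 40.7% a replicate 2 peak. The single transfer RNA genes thus lay below all genes in each of these lists, replicate 1 included. Genes in clusters of at least 2 lay above all genes in the pooled and replicate 1 lists and below them in replicate 2. Genes in a cluster share peaks, and a cluster covers more sequence, so the gene counts are not independent.

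The 2 largest clusters hold 11 genes each. That from tRNA:Arg-ACG-1-2 to tRNA:Arg-ACG-1-4 (chr2R:6161535-6171759), partly inside EcR, carries arginine, asparagine, isoleucine and lysine genes and had pooled peaks at 6, replicate 1 peaks at 8 and replicate 2 peaks at 2. That from tRNA:Val-CAC-1-1 to tRNA:Pro-TGG-1-3 (chr3R:17617761-17631750) carries valine, proline, alanine and threonine genes and had 6, 9 and 4. The 8 genes from tRNA:iMet-CAT-1-1 to tRNA:Glu-CTC-5-1Psi (chr2R:19725620-19729353), initiator and glutamate genes, all had a pooled and a replicate 1 peak, and 1, tRNA:Glu-TTC-1-5, had a replicate 2 peak.

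Of the 7 isoleucine and leucine genes inside ATP8A (chr2R:13430282-13432794), 5 had a pooled peak and all 7 a replicate 1 peak, with 0 in replicate 2. The 7 arginine and serine genes on chromosome X (chrX:14014814-14017284) had 2 in each of the 3 relaxed lists. Clusters thus ranged from a peak at every gene to few. A cluster of 6 identical glutamate genes inside Ptp61F, a tyrosine phosphatase gene (chr3L:1397695-1401852), had 0 pooled and replicate 1 peaks and 1 in replicate 2, while a cluster of 6 cysteine and lysine genes inside Cht7, a chitinase gene (chr3L:3095737-3097590), had 6, 6 and 0. Both were named after their values were seen.

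**Figure D5:**
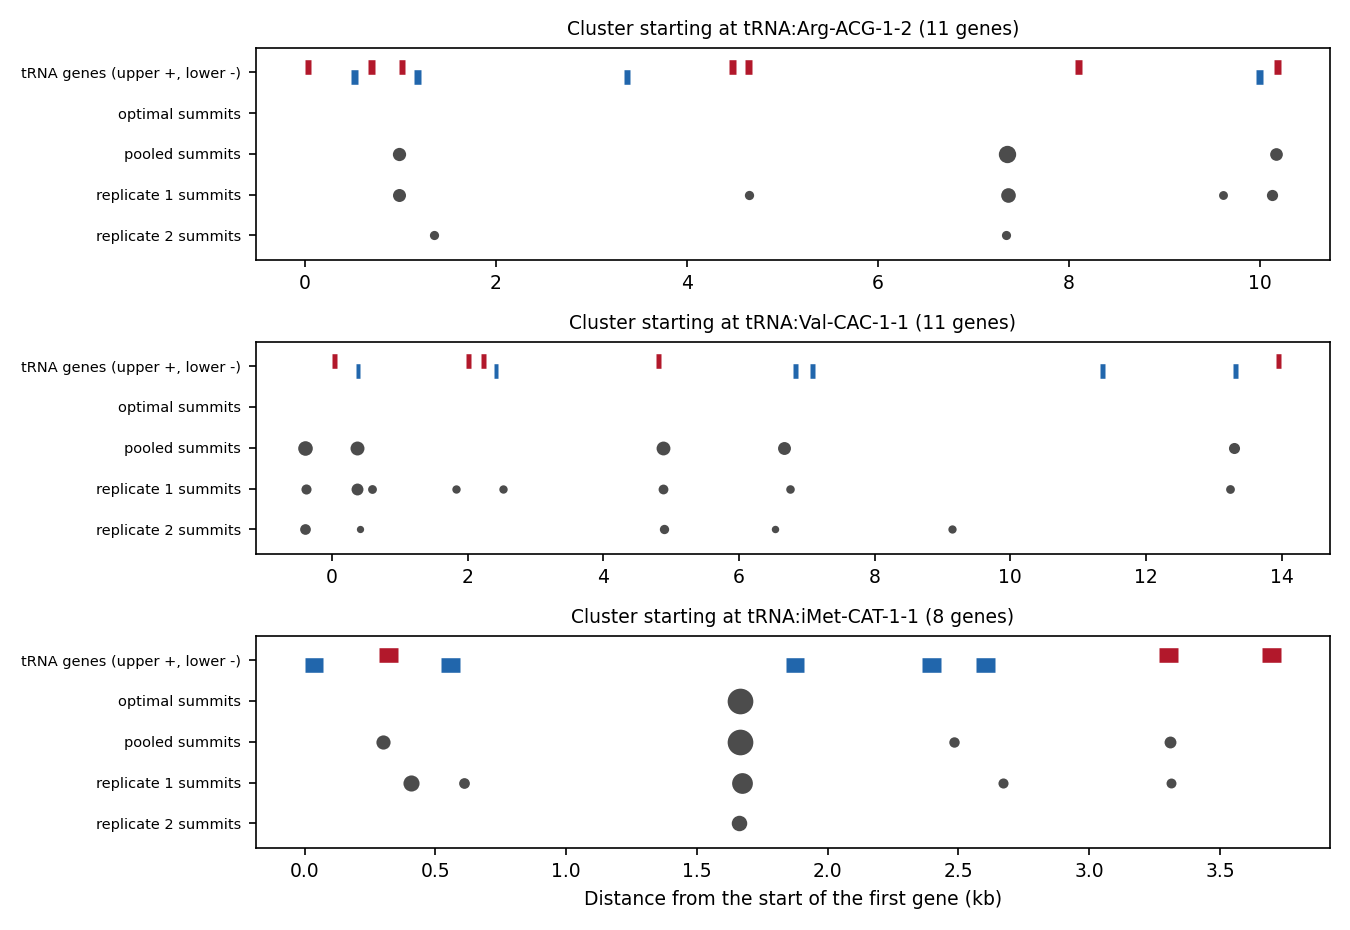
Maps of the 3 clusters of 11, 11 and 8 genes, with distance in kb from the start of the first gene, transfer RNA genes as boxes (red on the plus strand, blue on the minus strand) and summits of each list as dots whose area grows with signal. In the cluster from tRNA:iMet-CAT-1-1, 1 summit is shared by all 4 lists, and the other summits are from the pooled and replicate 1 lists.

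The transfer RNA genes are short and repeated: their median length was 73 bp, and they held 100 distinct sequences. Of the 295 genes, 57 had a sequence found once, 58 had 2 to 4 identical copies and 180 had 5 or more. A pooled peak was present at 45.6% of the 57, 43.1% of the 58 and 53.3% of the 180. Replicate 1 had peaks at 50.9%, 58.6% and 63.9%, and replicate 2 at 33.3%, 22.4% and 28.3%. Each class had a lower share in replicate 2, and the fall was smallest at the genes of unique sequence. Unique means only that no exact copy was found: tRNA:Ser-GCT-1-1 is counted so, though it differs from tRNA:Ser-GCT-2-5 by 1 base. The sources used here do not state how reads that match several copies were treated, and its part in these values was not tested.

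The B box core was found in 274 of the 295 genes (92.9%), and in 1.38% of windows of 73 bases before 13945 protein-coding genes. It was present in 91.8% of the genes with a pooled peak and 93.9% of those without. A run of 4 T (TTTT) occurred in the 30 bases after 281 genes (95.3%), against 22.0% of windows of that length before protein-coding genes, and in 93.2% of the genes with a pooled peak and 97.3% of those without. Both features were therefore about as frequent with a peak as without one. A pooled peak was also about as frequent at the 137 genes inside a protein-coding gene (48.2%) as at those outside (51.3%). Of the 5 pseudogenes, 1 had a pooled peak, 2 a replicate 1 peak and 1 a replicate 2 peak.

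Other products of RNA polymerase III gave mixed counts. Of 10 genes for U6, U6atac, 7SK, 7SL, RNase P and RNase MRP RNAs, 1 (10%) had an optimal peak, against 8.83% of all genes. The pooled and both replicate lists had a peak at 4 of the 10 (40%) each, against 46%, 47.8% and 40.7% of all genes. The optimal peak was at snRNA:7SKa, whose RNA holds back the elongation factor P-TEFb, with a signal of 107 and replicate values of 67.2 and 35.3. snRNA:U6:96Ab and snRNA:U6:96Ac, which encode the U6 RNA of the spliceosome, shared a pooled peak of 61.5. RNaseMRP:RNA had 56.3 in the pooled list and 47.9 in replicate 1, with no replicate 2 peak. None of the 100 genes and pseudogenes for 5S ribosomal RNA had a peak within 500 bp in any of the 4 lists, and these are near-identical copies in 1 array.

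Among 15 genes for the RNA polymerase III machinery, 2 (13.3%) had an optimal peak, 9 (60%) a pooled peak, 10 (66.7%) a replicate 1 peak and 8 (53.3%) a replicate 2 peak. The shares of all protein-coding genes were 10.5%, 51.3%, 52.9% and 45%. Both optimal peaks were at subunits of TFIIIB. Bdp1 had a signal of 325, with 157 in replicate 1 and 169 in replicate 2, and its summit lay 121 bp upstream of a TSS. Brf had 232, with 113 and 107, and a summit 134 bp upstream. At both of these genes, which RNA polymerase II transcribes, the replicate values were close to each other, while the subunit genes Polr3C, Polr3E, Polr3F and Polr3G had a replicate 1 peak, of 18.8 to 27.0, and none in replicate 2. Trf had no pooled peak and a replicate 2 peak of 18.4. Of the polymerase subunits, Polr3D had a pooled peak of 65.8, with 34.4 in replicate 1 and 22.8 in replicate 2, and Polr3A, Polr3I and Polr3K had none.

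Small nucleolar and small nuclear RNA genes offer a comparison with other short genes. The latter include the U6, U6atac and 7SK genes already counted among the products of RNA polymerase III. Of 257 small nucleolar RNA genes, 82 (31.9%) had a pooled peak, 84 (32.7%) a replicate 1 peak and 79 (30.7%) a replicate 2 peak. Of 32 small nuclear RNA genes, 14 (43.8%), 16 (50%) and 18 (56.2%) had one, against 46%, 47.8% and 40.7% of all genes. The share thus went from replicate 1 to replicate 2 from 32.7% to 30.7% and from 50% to 56.2% in these classes, and from 60.3% to 28.1% at the transfer RNA genes. In the optimal list 10 small nucleolar (3.89%) and 6 small nuclear RNA genes (18.8%) had a peak. The shares there were 2.71% of transfer RNA genes and 8.83% of all genes.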

How the data were processed

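ChIP-seq peak lists of 2 replicates of 1 group were analysed on dm6; the lists on dm3 were not used. Notes deposited beside the lists state that the authors called peaks for each replicate and for both together, relative to a control, and that an irreproducible discovery rate filter gave the optimal list. The sources used here do not name the caller, aligner, filter threshold or handling of repeated reads. Signal per peak, −log10 q and summit offset are the authors' own and were used as deposited; peaks were ranked by signal, since −log10 q was at its maximum in 89.5% of optimal peaks. Peaks had nearly 1 width per list (median 404 bp in the optimal and pooled lists, 410 bp in replicate 1 and 390 bp in replicate 2), with the summit in the middle in 88.5% to 99.6%. Fragments of 200 to 800 bp were sized, per the labels.

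Genes and TSSs came from Ensembl release 115 and sequences from RefSeq's Release 6 genome; all 295 transfer RNA symbols and coordinates were the same in both. Transposable elements were left out. A replicate value is the signal of the strongest peak of that list overlapping the pooled peak by at least 1 base. Named genes were those with an optimal peak, the 10 strongest pooled peaks outside that list, the 5 strongest with no protein-coding TSS within 500 bp, the 5 nearest summits, the 3 largest and 3 smallest replicate ratios and the 5 largest clusters; others are given to illustrate a count. Of the machinery symbols written, TfIIIA matched no gene. The members and lists were chosen with earlier results of these data known. The counting was checked on simulated peaks. Read depth is unknown and peak number per replicate list was fixed at 30000, so list length is no measure of depth. Alternatives were other windows, lists, cluster gaps and each replicate alone. Tools were numpy 2.4.6, pandas 2.3.3 and matplotlib 3.10.9 under Python 3.11.15.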

Additional observations from a re-analysis of the deposited data

How the results depend on the processing

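No paired analysis was possible because the study has a single group. The window set most counts. At 100, 200 and 1000 bp the optimal count of 8 became 0, 1 and 19 and the replicate 2 count of 83 became 19, 33 and 159. The pooled count of 147 became 54, 78 and 208, and the replicate 1 count of 178 became 72, 105 and 225. At 200 bp the optimal, pooled, replicate 1 and replicate 2 shares were 0.339%, 26.4%, 35.6% and 11.2%. Those of all genes were 6.13%, 30%, 31.6% and 24.1%. At 1000 bp the same shares were 6.44%, 70.5%, 76.3% and 53.9%, against 11.1%, 58.3%, 58.9% and 55.2% of all genes. Replicate 2 was thus below all genes at 500 bp but near them at 1000 bp. The pooled count without a protein-coding TSS in the window (128) became 54 and 78 at 100 and 200 bp. The count with one (19) became 0 and 0 at these windows, and 61 at 1000 bp. In these counts the window for the protein-coding TSS changed together with that for the summit. With the former kept at 500 bp, 6 of the 33 genes (18.2%) had a pooled summit within 100 bp, against 19.4% of all genes. Within 200 bp it was 10 (30.3%), against 30% of all genes. Fewer genes or peaks are counted by construction in some settings. Giving each peak to the nearest TSS of any gene, coding or not, left 2 optimal and 102 pooled genes. The nearest TSS can thus be that of another non-coding gene. Genes of unique sequence left 2 optimal and 26 pooled, and peaks in both replicate lists left 67. The strongest 4348 pooled peaks gave 35. The replicate lists cut to their strongest 2174 peaks gave 28 and 9, and to their strongest 10000 gave 89 and 40, settings chosen after the data were seen. With 1 replicate left out the pooled count ranged from 83 to 178, that without a protein-coding TSS from 72 to 154 and that with one from 11 to 24. For the optimal count the strongest 2174 peaks of the remaining replicate stood in for the filtered list. Its range from 9 to 28 is thus the same calculation as the cut to 2174 peaks above, not a further check. The median distance of -52 bp was -177 bp in the optimal list and -84 to -30 bp by replicate. Matching replicate summits to within 100 bp of the pooled summit, also chosen after the data were seen, took the pooled peaks in both lists from 57 to 34 and those in replicate 2 alone from 9 to 18. In all, 24 of 55 alternatives, some of which repeat the same count, stayed within 1.5 times the reported value or within the replicate spread.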
